A study of Mus musculus with 4 samples.

Results

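The genes described here are those that the deposited Gene Ontology (GO) table places under sister chromatid segregation, the separation of the replicated copies of each chromosome at cell division. The row of that name lists 89 Ensembl gene IDs, and all 89 are among the 9225 distinct IDs of the deposited table of genes related to differential m6A peaks. The study measured N6-methyladenosine (m6A), a methyl mark on RNA, in the insulin-secreting mouse tumour line MIN6, a model of pancreatic beta cells (strain given as C57BL/6). One arm was transfected with a control vector and the other with an expression vector for GR, an abbreviation that the labels do not spell out. Both arms received 10 µg of plasmid with a lipid reagent, and RNA was taken after 24 hours. Each arm had 1 input library and 1 library enriched with an anti-m6A antibody, 4 in all, so nothing below has a replicate check.

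The members were chosen by the readout itself: a gene is in the row because the authors tied it to a differential peak. Being listed is therefore the criterion and not a finding. No value per library, peak position, fold change or direction is given for any member, and 0 of the 89 are in the only deposited table with fold changes (22 autophagy genes). Whether m6A on these transcripts was higher or lower with GR is not known from these files, and neither is sequencing depth nor the RNA level in the input. Absence from the gene table does not show that a transcript lacked a differential peak, because only 9 of those 22 autophagy genes, all with deposited peaks, are in the gene table.

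After DNA replication the copies of a chromosome are held together by cohesin, a ring of SMC proteins closed by a kleisin subunit. Condensin, a related SMC complex, compacts the chromosomes for mitosis. Kinetochores built on the centromere attach the copies to spindle microtubules, and the spindle assembly checkpoint blocks the anaphase-promoting complex until every kinetochore is attached. The protease separase then cuts the kleisin and the copies part. MIN6 is a dividing line, unlike most adult beta cells. Of all 21900 protein-coding genes of the RefSeq reference, 25.6% were on at least 1 line of the gene table. Of 10 beta-cell markers 9 were in it (Ins1, Mafa, Pdx1, Nkx6-1, Nkx2-2, Slc2a2, Slc30a8, Chga and Chgb, without Ins2). Of the exocrine markers 0 of 4 and of the duct markers 0 of 2 were in it, counts too small to set apart from 25.6%. Of 6 proliferation markers, Pcna, Ccnb1, Cdk1 and Mcm2 were in the table, and Mki67 and Top2a were not.

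The 89 members are 50.0% of the 178 background genes of the term (exact Clopper-Pearson 95% interval 42.4% to 57.6%, counting error only). What that share is read against depends on the total. Distinct IDs in the gene lists of all GO terms make up 26.0% of the background. The 89 members are distinct IDs too, so 26.0% is the share counted in the same way. The deposited total of genes with a peak makes up 48.3%. That total exceeds the number of IDs in the gene table, and what it counts is not known here. The authors' deposited table gives p = 1 for this and each of its other terms. A comparison within the table needs no total. Among the 1332 terms with 100 to 300 background genes, the median share was 30.0%, and sister chromatid segregation had the highest share. Next were regulation of chromosome segregation with 50 of 102, mitotic sister chromatid segregation with 71 of 145 and kinetochore with 63 of 130, and these rows overlap with the first: all 71 genes of the mitotic row and 26 of the 63 kinetochore genes are members. Spindle pole, another mitotic term of like size, had 57 of 157 genes (36.3%). With terms of 50 to 500 background genes the term ranked 18 of 2962. Smaller rows ahead of it included its own child term, regulation of sister chromatid segregation (43 of 78), and the unrelated mitochondrial membrane organization (53 of 97). The term was singled out with these values in view.

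**Figure D1:**
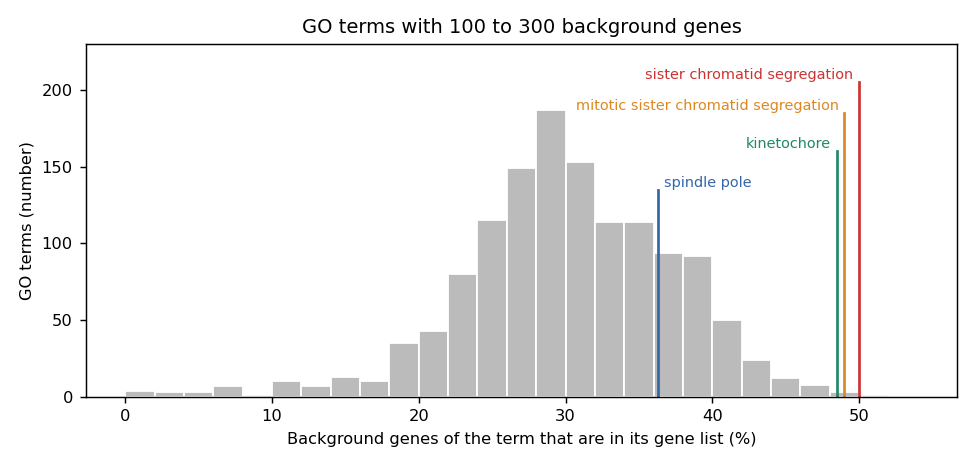
Number of GO terms (vertical axis) by the percentage of their background genes that are in the term's gene list (horizontal axis), for the 1332 terms with 100 to 300 background genes. Coloured lines mark sister chromatid segregation at 50.0%, its mitotic child term at 49.0% and kinetochore at 48.5%, to the right of the median of 30.0%, and spindle pole at 36.3%.

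The broader parent term, chromosome segregation, had 129 of 310 genes (41.6%), and all 89 members are in it. That share is not particular to segregation: DNA repair had 177 of 435 (40.7%) and mRNA processing 186 of 450 (41.3%). Of the members, 71 are in the mitotic child term and 5 (Bub1b, Hormad2, Ppp2r1a, Rad51c and Sgo2a) in the meiotic one. Homologous chromosome segregation, the pairing-dependent division of meiosis, had 13 of 59 (22%, 12.3% to 34.7%), and 3 members are in it. Within the term, the rows nearest to cohesin had shares above the term's own 50.0%, most on few genes. Their exact intervals lie above the 26.0% from distinct IDs but include the 48.3% from the deposited total. Cohesin loading had 5 of 6 genes (Cdca5, Hdac8, Nipbl, Rb1 and Wapl), establishment of cohesion 6 of 8 (the same genes with Ddx11), the cohesin complex 7 of 12 and sister chromatid cohesion 29 of 54 (53.7%). High shares were not limited to cohesin rows. Attachment of microtubules to the kinetochore had 18 of 32 (56.2%) and the transition from metaphase to anaphase 28 of 55 (50.9%). Protein localization to the kinetochore had 12 of 18 (66.7%) and the spindle midzone 21 of 36 (58.3%), though not all of these genes are members. Mitotic chromosome condensation had 4 of 14, the condensin complex 1 of 8 and the anaphase-promoting complex 5 of 23 (21.7%, 7.46% to 43.7%). These rows overlap and differ in size, and no difference between them was tested.

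**Figure D2:**
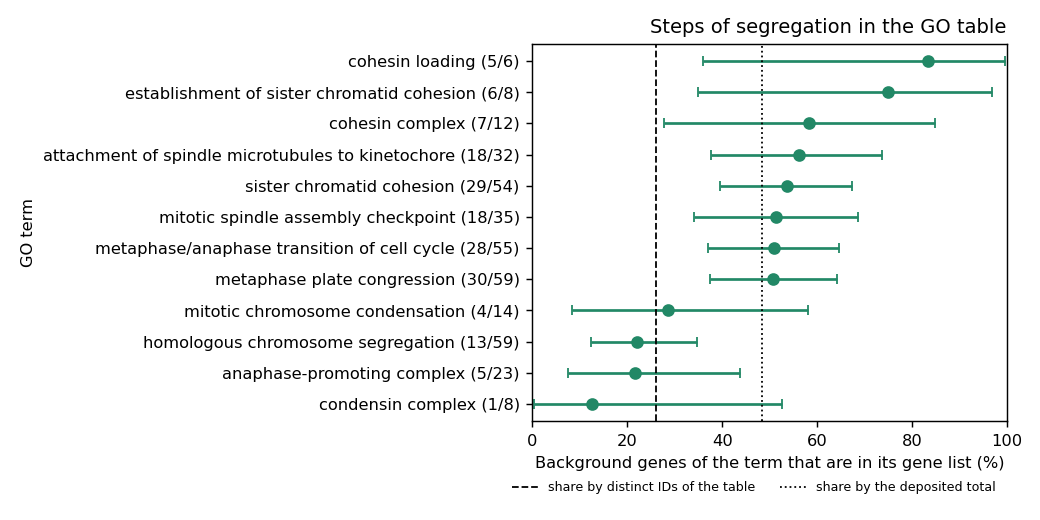
Percentage of background genes in the gene list (horizontal axis) for 12 GO terms that follow the steps of segregation, with exact 95% intervals as bars and the counts beside each name. Cohesin, attachment, checkpoint, congression and metaphase to anaphase terms lie above 50%. Condensin, condensation, homologous segregation and the anaphase-promoting complex lie below 30%, with wide intervals for the small terms. Vertical lines mark the background share by distinct IDs (26.0%, dashed) and by the deposited total (48.3%, dotted).

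Each line of the gene table holds a gene ID, a symbol and the names of protein domains. In none of the 9225 IDs do the lines of a gene differ from each other (0 IDs), so a gene on several lines is repeated word for word. The files do not say what makes a gene take up more than 1 line, so the number is no measure of peaks or of m6A. The 89 members took up 153 lines, with a median of 1 (quartiles 1 and 2) and a mean of 1.72 ± 1.08 (SD over members). By number of lines, 51 members were on 1, 23 on 2, 8 on 3, 4 on 4, 2 on 5 and 1 on 6. Listed protein-coding genes had the same median and a mean of 1.85, and 44.5% of them were on 2 or more lines, against 42.7% of the members, which is no higher. Of all protein-coding genes, listed or not, 11.4% were on 2 or more lines.

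Cohesin and the factors that load, lock and open it supplied 14 members. All 3 genes of the core ring were listed: Smc1a (2 lines) and Smc3 (1 line) encode its long coiled-coil arms, and Rad21 (4 lines) the kleisin that closes it. Neither somatic STAG subunit, Stag1 or Stag2, was in the table. Nipbl, the loader, was on 4 lines, while its partner Mau2 was absent. Wapl, which opens the ring to release cohesin from DNA, had 2 lines, as had Cdca5 (sororin), which counters Wapl after replication. Pds5a, which binds the ring, had 1 line, and Pds5b was absent. The acetyltransferases Esco1 and Esco2, which acetylate cohesin, and Hdac8, which removes that acetylation, had 1 line each. Chtf8, a subunit of the alternative clamp loader that supports cohesion, had 2 lines.

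Separase and centromeric protection make up the rest of the cohesin group. Espl1, the separase that cleaves the kleisin, had 1 line, and its inhibitor securin (Pttg1) was absent. Sgo2a, a shugoshin that shields cohesin at centromeres, had 1 line, and Sgo1 was absent. Of the 4 cohesin subunits that serve meiosis, Rec8 was listed on 1 line and Smc1b, Rad21l and Stag3 were not. The table thus held some proteins of a pair and not their partners. RNA levels of the absent partners are not given, so low expression was not tested.

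Condensin supplied 1 member. Ncaph2, the kleisin of condensin II, had 1 line, whereas Smc2, Smc4, Ncaph, Ncapg, Ncapd2, Ncapg2, Ncapd3 and Mcph1 were absent. Even this listing is uncertain in its assignment. Ncaph2 (chromosome 15, 89355719 to 89372850, GRCm38.p6) overlaps Sco2, a protein-coding gene on 6 lines, and which transcript carries the peak cannot be read from the table.

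The kinetochore group, with the chromosomal passenger complex, supplied 12 members. Dsn1, a subunit of the MIS12 complex that joins inner and outer kinetochore, led with 5 lines, and Mis12 of the same complex had 3. Zwint, which binds the KNL1 scaffold, had 3 lines. Cenpe, a kinesin motor that carries chromosomes to the metaphase plate, and Bod1, a regulator of phosphatase 2A at the kinetochore, had 2 each. Nuf2 of the microtubule-binding NDC80 complex, Cenpc1, which links centromeric chromatin to the outer kinetochore, and Spag5 (astrin) had 1 each. In the passenger complex, which corrects faulty attachments, the scaffold Incenp had 3 lines, Birc5 (survivin) 2, and Cdca8 (borealin) and the kinase Aurkb 1 each.

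The checkpoint group supplied 5 members. Mad2l1 and Bub1b, both part of the inhibitor of the anaphase-promoting complex, had 2 lines each, and Bub3, which recruits Bub1b to kinetochores, had 1. Ttk (MPS1), the kinase that starts checkpoint signalling, and Spdl1 (spindly), a dynein adaptor, had 1 each. Of the 4 genes of the mitotic checkpoint complex, Cdc20 was the one not listed. Bub1, Mad1l1, Trip13 and the 3 genes of the RZZ complex (Kntc1, Zw10 and Zwilch) were also absent. The deposited row for the mitotic checkpoint has 18 of 35 genes, 5 of which are Mad2l1, Bub1b, Bub3, Spdl1 and Aurkb. Others in that row, such as Dusp1, Psmg2, Pcid2 and Xrcc3, are not checkpoint proteins of the kinetochore.

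**Figure D3:**
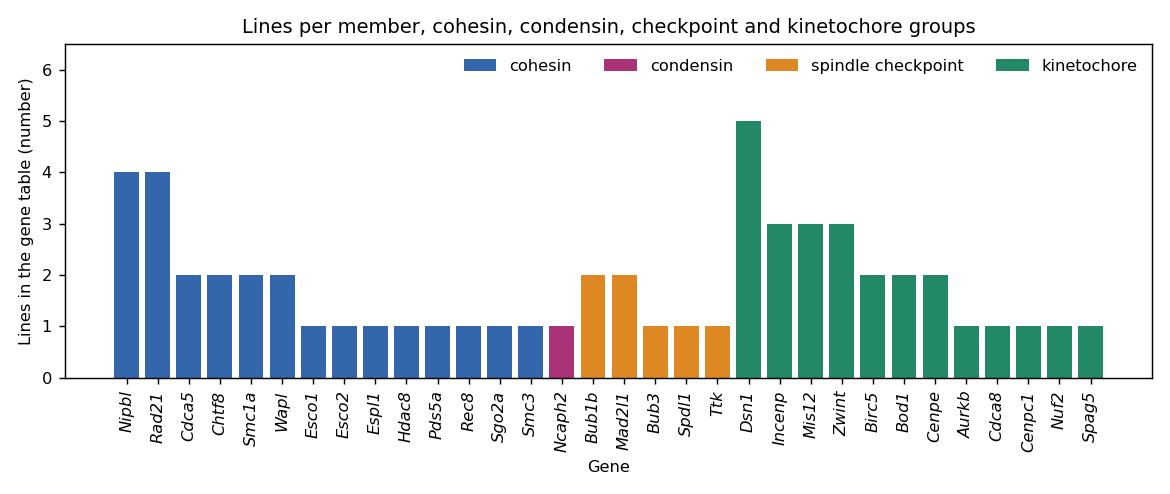
Number of lines in the gene table (vertical axis) for each member of the cohesin, condensin, spindle checkpoint and kinetochore groups (horizontal axis, coloured by group). Dsn1 stands highest at 5 lines, Nipbl and Rad21 follow at 4, and the single condensin gene, Ncaph2, has 1.

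The remaining 57 members have many functions. Akap8, an anchoring protein linked to chromosome condensation, had 6 lines, the most of any member, and Lats1, a kinase of the Hippo pathway, had 5. Haspin, the kinase that marks histone H3 for the passenger complex, had 4 lines. Its gene spans 2811 bases within the bounds of Itgae, which is itself on 1 line, so the 2 genes cannot be separated with certainty. Other mitotic regulators were Ccnb1 (cyclin B1), Nek2 and Ppp2r1a on 1 line each, and Fbxo5 (EMI1, an inhibitor of the anaphase-promoting complex) on 3. Among spindle motors and midzone proteins, Kif14, Kif18a, Kif23 and Racgap1 had 1 line each. Anapc4 was the single coding subunit of the anaphase-promoting complex among the members, with 1 line. Anapc15-ps, also on 1 line, is a pseudogene, and reads from its parent gene could have been assigned to it.

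ESCRT-III, the filament complex that reseals the nuclear envelope and cuts the last bridge between daughter cells, supplied Chmp1b (4 lines), Chmp6 (3), Chmp4b and Chmp7 (2 each) and Chmp2b (1). The domain names of the gene table carry the same group: 5 of the 6 listed IDs with the Snf7 family domain are members. Slf1 and Slf2, which recruit the SMC5-SMC6 complex to damaged DNA, and Atrx, a chromatin remodeller, had 1 line each, and Rmi2, which works with the BLM helicase to untangle DNA, had 2. Ddx11, a helicase needed for cohesion, and Xrcc3 had 2 lines and Rad51c 1. The replication licensing factors Cdc6 and Cdt1 had 3 and 1. Among nuclear RNA-binding and chromatin proteins, Hnrnpu had 3 lines, Sfpq and the histone chaperone Hira 2, and Rb1 and H2afy (macroH2A) 1.

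Centrosome members were the gamma-tubulin genes Tubg1 and Tubg2 and Cdk5rap2 on 1 line each, and Cep192 on 2. The ubiquitin ligase genes were Cul3 on 1 line and Klhl22 and Fbxw7 on 2 each. Kpnb1 (importin beta) had 3 lines and Nup62, Mapk15 and the meiotic HORMA protein gene Hormad2 had 2, while Psrc1, Knstrn, Zfp207, Phb2, Pcid2, Riok2 and Khdc3 had 1. Finally, Dusp1 (2 lines) is also known as a glucocorticoid-induced gene, Becn1 as an autophagy gene and Ctnnb1 as beta-catenin of the Wnt pathway (1 line each), and Rab11a, Phf23, Psmg2 and Rrs1 had 1. The subdivision of these 57 members beyond the lists was made after the genes were seen.

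By domain name, 13 members (14.6%) carry a P-loop nucleoside triphosphate hydrolase domain, among them the SMC proteins, the kinesins and the helicases, against 3.18% of the listed IDs with any domain name. A protein kinase-like domain was named in 8 members (8.99%, against 1.74%): Aurkb, Bub1b, Haspin, Lats1, Mapk15, Nek2, Riok2 and Ttk. Kinesin motor domains occurred in Cenpe, Kif14, Kif18a and Kif23, which are 4 of 15 listed IDs with that domain. Armadillo-type folds were named in Nipbl, Pds5a, Wapl, Kpnb1, Ppp2r1a and Ctnnb1. A GO term gathers proteins of like function, so such domains follow from how the members were chosen.

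The row holds only listed genes, so 10 lists of segregation genes were set beside the gene table to see which known components are absent from it. Over all 10 lists, 83 of 184 genes were listed (45.1%, exact interval 37.8% to 52.6%), beside 25.6% of all protein-coding genes. Of these 83 genes, 46 are members, which are listed by the rule, so the shares are given as a description. The share was 59.6% for kinetochore and centromere genes (28 of 47, 44.3% to 73.6%), 61.9% for mitotic kinases and phosphatases (13 of 21, 38.4% to 81.9%) and 53.8% for cohesin (14 of 26, 33.4% to 73.4%). The passenger complex had 4 of 5 genes, all except Aurkc (28.4% to 99.5%). All 14 listed cohesin genes and all 4 listed passenger genes are members, as are 8 of the 28 kinetochore genes and 4 of the 13 kinases and phosphatases.

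The other 6 lists had lower shares. They are the SMC5-SMC6 complex (3 of 8), the spindle checkpoint (5 of 14, 35.7%), spindle motors and microtubule proteins (8 of 24, 33.3%), decatenation (4 of 14, 28.6%), the anaphase-promoting complex (3 of 19, 15.8%, 3.38% to 39.6%) and condensin (1 of 9, 11.1%, 0.281% to 48.2%). The condensin interval overlaps that of cohesin, and no difference between them was tested. All listed genes of both lists are members, listed by the rule, so nothing is concluded about the SMC complexes. Gene length moved with listing, from 5.57% among the shortest protein-coding genes to 33.0% in the fifth of 10 length classes and 17.6% among the longest. Protein-coding genes with the same mix of lengths were listed at 23.0% to 30.7% for the 10 lists. Which genes were expressed enough to give a peak is not known, and the part of expression in these shares was not tested.

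**Figure D4:**
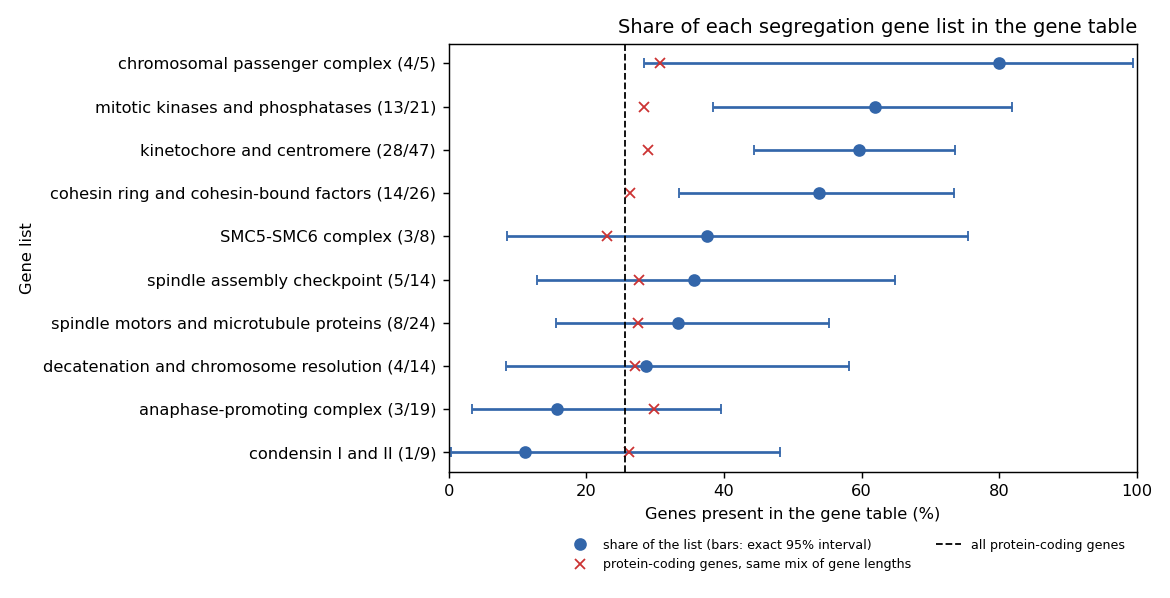
Percentage of genes present in the gene table (horizontal axis) for 10 segregation gene lists (listed and total genes beside each name), with exact 95% intervals as bars. The shares run from 11.1% for condensin to 80.0% for the passenger complex, beside 25.6% of all protein-coding genes (dashed line) and the share for the same mix of gene lengths (crosses).

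Of the 28 listed kinetochore and centromere genes, 20 are not in the sister chromatid segregation row, though 15 of these are in the deposited kinetochore row. Some belong to complexes described above. In the NDC80 complex Nuf2, Spc24 (3 lines) and Spc25 were listed and Ndc80 was not. In the MIS12 complex Pmf1 joined Mis12 and Dsn1, and Nsl1 was absent. Knl1, the checkpoint scaffold of the outer kinetochore, had 3 lines. Cenpl had 4 lines and Cenpn 1, both subunits of the inner kinetochore that bind CENP-A chromatin, while none of Cenpt, Cenpw, Cenps and Cenpx (0 of 4) was listed. Cenpa, the centromeric histone, had 2 lines and its chaperone Hjurp 3.

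Among the kinases and phosphatases, 9 listed genes are likewise outside the row. All 4 genes taken for the Greatwall pathway, which restrains phosphatase 2A during mitosis, were listed: the kinase Mastl on 3 lines, its substrates Arpp19 on 4 and Ensa on 2, and the phosphatase subunit Ppp2r2a on 1. Cdk1 and Ccnb2 had 1 line each, and Plk1 and Aurka were absent. This pathway and these complexes were picked out after the lines were seen, and 25.6% of all protein-coding genes were listed. Other sets picked in the same way had no gene listed, such as the RZZ complex (0 of 3) and Cenpt, Cenpw, Cenps and Cenpx (0 of 4). A fully listed set is therefore no result.

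In the KEGG pathway table, 39 members are in at least 1 pathway. Cell cycle holds 12 members (Anapc4, Bub1b, Bub3, Ccnb1, Cdc6, Espl1, Mad2l1, Rad21, Rb1, Smc1a, Smc3 and Ttk), which are 13.5% of the members and 16.9% of its 71 input IDs. Those 71 IDs map to 65 Entrez genes. For this pathway the authors' deposited table gives 125 background genes and p = 1.69e-12 (adjusted 3.5e-11). Oocyte meiosis holds 9 members of 55 input IDs, which map to 49 Entrez genes. Its p in the authors' deposited table is 6.23e-08 (hypergeometric or Fisher test). Input IDs thus outnumber genes in Cell cycle and in Oocyte meiosis, and the deposited p-values were not recomputed with each gene counted once. Endocytosis holds 6 members, namely the 5 ESCRT-III genes and Rab11a. Unnamed gene models share an Entrez gene with 2 members: Gm16042 with Fbxo5 and Gm13531 with Chmp6, each on 2 lines of its own, so lines of a member and of a copy may not be separable.

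Overlap between genes limits the assignment of several members further. By RefSeq bounds, 37 of the 89 members overlap another annotated gene, 13 overlap one that is itself in the gene table, and in 5 that gene is protein-coding. These 5 are Ncaph2 with Sco2 (6 lines), Nup62 with Atf5 (4 lines), Lats1 with Pcmt1 (2 lines), Becn1 with Cntd1 (2 lines) and Haspin with Itgae (1 line). Cdk5rap2 contains the pseudogene Ywhaq-ps3, on 6 lines, and Atrx contains the small nuclear RNA gene Gm23656, on 5.

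The rule did not use DNA sequence, but the term itself gathers genes of mitosis. Promoters were looked at for what the members share. Many genes of G2 phase and mitosis carry a cell cycle genes homology region (CHR), a short element near the transcription start through which the DREAM and MuvB complexes restrict transcription to these phases. The hexamer TTTGAA, which reads TTCAAA on the other strand, was searched together with the palindrome TTCGAA in RefSeq promoters of GRCm38.p6, which matched 69 of the 89 members. The start is that of the promoter table, which for many genes lies inside the outer bounds of the gene, and a gene with several entries counted if any held a hexamer. Within 50 bases on each side of the start, 15 of the 69 members (21.7%, 12.7% to 33.3%) held a hexamer, against 888 of 17492 protein-coding genes (5.08%) and 4.61% of listed protein-coding genes. In the cohesin, condensin, checkpoint and kinetochore groups the count was 9 of 26 (34.6%), and among the other members it was 6 of 43 (14.0%). With starts at the outer gene bound the counts were 8 of 43 members (18.6%) and 4.70% of all protein-coding genes. Over the whole window of 300 bases the members' share was 30.4% (19.9% to 42.7%), an interval that includes the 20.2% of all protein-coding genes. The 15.6% of listed protein-coding genes lies below that interval. The window of 50 bases was chosen after the sequences were seen, and a match of letters is not a shown binding site. A CHR share above that of all genes can follow from how the members were chosen. The term's background genes outside the row were not searched, so the share cannot be tied to being listed.

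Sites of 10 of the 15 genes follow, to show the hexamer in members with different roles, at 43 bases before to 7 bases after the start. Each run is 30 bases of the gene's own strand, 5′ to 3′, with the hexamer in capitals.
Cdca5 (sororin), chr19:6085068-6085097, plus strand: caaggcgggcaaTTTGAAcgtttgaagcag
Espl1 (separase), chr15:102296254-102296283, plus strand: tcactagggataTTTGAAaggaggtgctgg
Bub3, chr7:131560315-131560344, plus strand: gagccgttggcgTTCAAAatcagccaatga
Ttk, chr9:83834684-83834713, plus strand: cagcggggaaatTTCAAAcgtgtttccgga
Spdl1, chr11:34833623-34833652, minus strand: gcgggaaccgtaTTCAAAaatccccggcgc
Spag5 (astrin), chr11:78301582-78301611, plus strand: gtgcgtattgggTTCAAAtagaggcggcgg
Kif23, chr9:61946780-61946809, minus strand: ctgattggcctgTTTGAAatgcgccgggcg
Racgap1, chr15:99651634-99651663, minus strand: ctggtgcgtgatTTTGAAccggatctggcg
Haspin, chr11:73138270-73138299, minus strand: gcggtgtttctgTTTGAAacgccgggcggg
Fbxo5, chr10:5805445-5805474, minus strand: ttgggcaccaaaTTCAAAgattttaaaagt

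In Spdl1, Kif23, Spag5, Fbxo5, Racgap1, Ttk and Haspin the hexamer begins 1 to 7 bases after the first base transcribed from the start in the promoter table. In Spag5, Ttk, Spdl1, Kif23, Espl1 and Bub3 the outer gene bound lies further upstream than that start. Kif23 and Racgap1, the subunits of centralspindlin, have it at 2 and 5 bases. In Cdca5 one copy begins 17 bases before the start and another 9 before, and in Espl1 the site begins 27 before. Between 0 and 25 bases after the start, 9 of 69 members (13.0%) held a hexamer, against 1.43% of all protein-coding genes. In the bins from 250 to 50 bases before the start the members were at 0% to 2.90%, near the 1.68% to 2.78% of all genes.

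**Figure D5:**
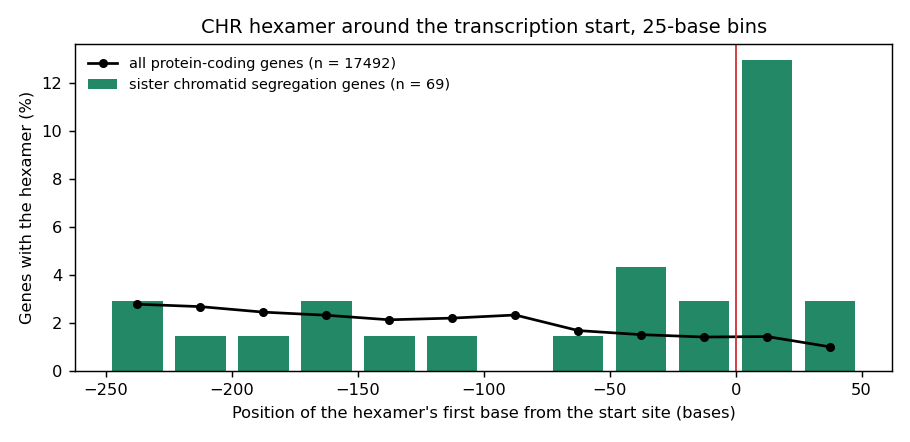
Percentage of genes with a CHR hexamer (vertical axis) by the position of its first base from the transcription start (horizontal axis, bins of 25 bases), for 69 sister chromatid segregation genes (bars) and 17492 protein-coding genes (line). The members reach 13.0% in the bin just after the start, where all genes are at 1.43%.

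The same windows were searched for GGACT, the DNA spelling of a common m6A consensus, in the first 50 transcribed bases on the sense strand. It occurred in Cdc6, Dusp1 and Fbxw7, 3 of 69 members (4.35%, 0.906% to 12.2%), against 6.93% of all protein-coding genes. These 50 bases are a small part of each transcript, most m6A is known to lie near stop codons and in the last exon, and the letters say nothing of where the members' peaks were. A CCAAT box on either strand was in 53.6% of the members (41.2% to 65.7%) and in 42.3% of all protein-coding genes, which lies within the interval.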

How the data were processed

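According to the submitters' processing notes, BWA 0.7.12 and HOMER 4.9.1 were used, in roles not stated, with the build mm10. How differential peaks were called is not given in the sources used here. The deposited GO and KEGG tables hold, per the file headers, numbers of genes and the authors' p-values, those of KEGG from a hypergeometric or Fisher test with Benjamini-Hochberg adjustment. The row named sister chromatid segregation was read by its exact name; 63 overflow lines belong to other terms, 0 to this one. Lines were counted per gene ID, and reference symbols were the same as the deposited ones for all 89 members. Protein-coding genes were matched by symbol or RefSeq synonym, and RefSeq coordinates and promoters are of GRCm38.p6, the assembly behind mm10. Members, lists and groups were chosen with earlier results of these data known. Each member was put in the first fitting group of cohesin, condensin, checkpoint, kinetochore and other, and every member is named with its lines. No test was run because the arms have no replicate libraries. Shares carry exact Clopper-Pearson 95% intervals that cover counting error only. Depth per library is unknown. Shares and intervals were computed with SciPy 1.17.1 under Python 3.11.15 and plotted with Matplotlib 3.10.9. The parsing and intervals were tested on simulated data. Not every promoter site is reported here.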

Additional observations from a re-analysis of the deposited data

How the results depend on the processing

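Alternatives were run for the member count, the term's share, lines per member, list shares, overlaps, groups and promoter hexamers, 49 in all. Of these, 39 were classed as unchanged, which does not mean an equal value. That class includes member counts of 71 with the mitotic child term and 129 with chromosome segregation, in place of 89. It also includes the members' hexamer share over the 300-base window, 30.4% in place of 21.7%. List shares with 2 or more lines required are in it too. They were 40% in place of 80% for the passenger complex and 14.3% in place of 35.7% for the checkpoint. For SMC5-SMC6 it was 12.5% in place of 37.5%, and for the anaphase-promoting complex 5.26% in place of 15.8%. Those classed as moved follow. Chromosome segregation in place of the term gave 41.6% in place of 50.0%. With 2 or more lines required (11.4% of protein-coding genes), the share was 23.1% for cohesin, 0% for condensin, 27.7% for kinetochore and centromere, 8.33% for spindle motors, 19.0% for mitotic kinases and 7.14% for decatenation, as fewer genes pass. Grouping by deposited GO component rows gave 7 cohesin members in place of 14 and 26 kinetochore members in place of 12, because the rows hold other genes. Ranking terms of 50 to 500 background genes, added after the data were seen, put the term at 18 in place of 1. Matching by deposited symbol and counting genes of 1 list only moved none of the 10 list shares beyond its interval. No paired analysis was possible because each arm has 1 library of each kind and the files hold no value per library.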
